A study of Mus musculus with 8 samples.

Results

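The galectin family was followed through RNA sequencing of ILC3s (innate lymphoid cells of group 3) that carried CCR6. These lymphocytes reside in the gut wall and secrete interleukin 22. The members were taken by name as 9 of the 27179 genes in the count table: Lgals1, Lgals2, Lgals3, Lgals4, Lgals7, Lgals8, Lgals9, Lgals12 and Lgals3bp. Lgals3bp encodes a galectin ligand, not a galectin. They came from the large intestine of C57BL/6 mice at steady state, with 1 library per mouse. The Zbtb46 KO group was 4 Zbtb46f/f mice that also carried a Cre recombinase active in ILC3s (replicates 5 to 8), and the group labelled wild type (WT) was 4 Zbtb46f/f mice without the Cre (replicates 1 to 4). Both groups therefore carried the floxed alleles, only the KO mice carried the Cre, and effects of the Cre itself and of the deletion cannot be told apart. No age of the mice is given in the labels. The family was selected on measured values, namely the CPM of its genes in the 2 groups, with the difference in Lgals1 already known, so the values of this comparison are a description of the members and not independent evidence.

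Galectins are lectins that bind β-galactosides, above all N-acetyllactosamine units on the glycans of cell surface proteins. They are made in the cytosol and leave the cell without a signal peptide, and outside the cell they cross-link glycoproteins and alter their signalling and turnover. Prototype galectins (galectin-1, galectin-2 and galectin-7) have a single carbohydrate recognition domain, galectin-3 joins that domain to a flexible tail, and the tandem-repeat galectins (galectin-4, galectin-8, galectin-9 and galectin-12) have a pair of them. In the gut, galectin-4 is best known from the epithelium, while galectin-1, galectin-3 and galectin-9 are made by many immune and stromal cells.

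Library totals ran from 25328231 to 33760743 counts. Levels are in CPM, read counts relative to the scaled library size, and 3 counts, the limit that a count of 0 allows, corresponded to 0.0856 to 0.124 CPM. Such limits cover counting error only. The targeted gene Zbtb46 had 4.82, 0.532, 3.19 and 0.125 CPM in KO replicates 5 to 8, against 8.02, 48.8, 88.9 and 26.6 CPM in WT replicates 1 to 4, without overlap. All 7 ILC3 marker genes used here, among them Il23r and Ccr6, were tested. Their summed level was 18902 to 23519 CPM in KO and 20156 to 30832 CPM in WT libraries. Most of each sum was Il22, at 13570 to 18953 CPM in KO and 15031 to 25512 CPM in WT libraries. Markers of other cells were high in several libraries. Epithelial markers summed to 1025 CPM in WT replicate 2, macrophage and neutrophil markers to 375 and 824 CPM in KO replicates 5 and 7, and stromal and endothelial markers to 489 CPM in KO replicate 7 and 1174 CPM in WT replicate 1. The comparison of KO with WT asks which transcripts of these cells differ when Zbtb46 is deleted. Over the 8878 genes tested, edgeR's quasi-likelihood test called 0 genes at an adjusted p under 0.05 (0% of those tested) and 364 at an unadjusted p under 0.05 (4.1%). DESeq2 called 240 genes higher (2.09% of 11478) and 134 lower in KO (3.26% in either direction), and limma-voom called 0. Zbtb46 itself had a log2 fold of -4.31 ± 1.42 (standard error, edgeR), and edgeR did not call it (adjusted p 0.885). DESeq2 did call it, with an adjusted p of 0.0115.

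Lgals1, which encodes galectin-1, was the only member whose groups did not overlap, and per length of its exons it was the most abundant one in every library. It had 1152, 549.7, 853 and 629 CPM in KO replicates 5, 6, 7 and 8, against 182, 282, 278 and 191 CPM in WT replicates 1, 2, 3 and 4. All KO libraries lay above all WT libraries, and in bulk samples more cells with a transcript and more of it per cell cannot be told apart. The lowest KO value was 1.95 times the highest WT value. Replicates 5 and 7 were the highest of the KO libraries. The means were 796 ± 270 CPM in KO and 233 ± 53.9 CPM in WT (SD, n = 4 each). The log2 fold was 1.77 ± 0.29 (standard error) in the fit over all genes, a fold of 3.41, and edgeR's adjusted p over all tested genes was 0.191, so Lgals1 did not pass. Its unadjusted p was the fourth smallest of all tested genes. Among all tested genes, 2.26% had every KO library above every WT library.

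**Figure D1:**
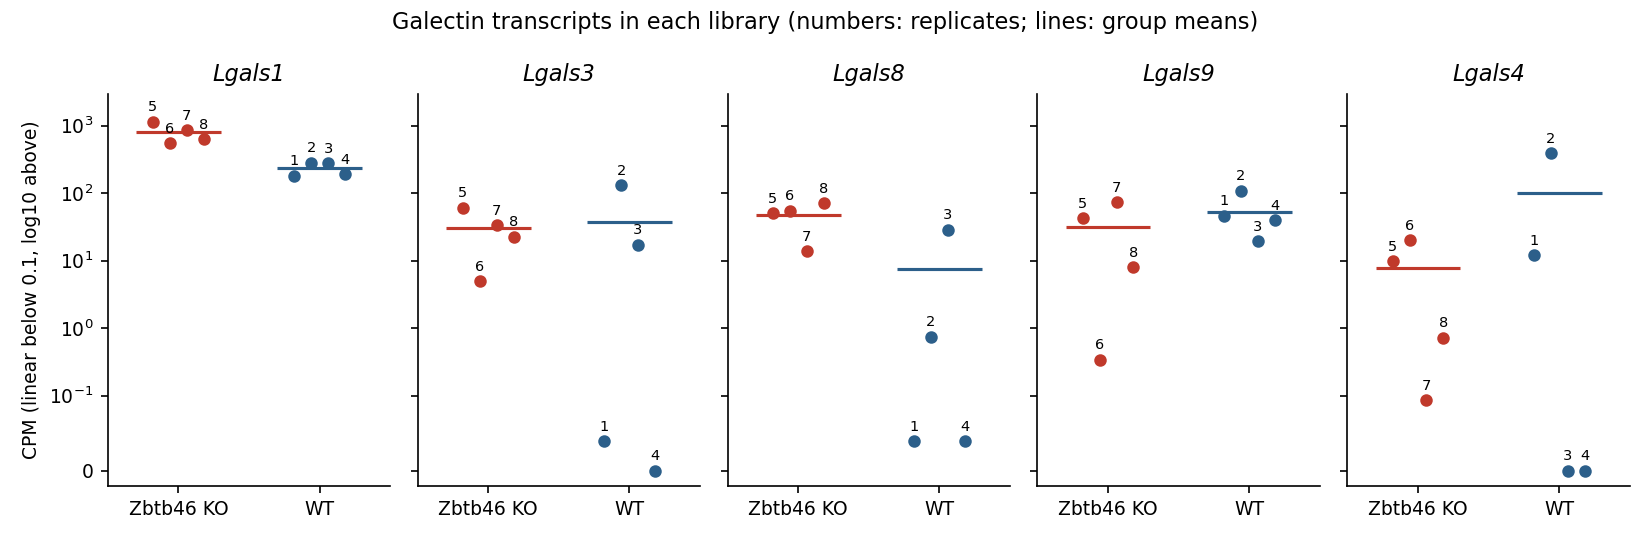
CPM of the 5 galectin members above 3 counts in at least 1 library, on an axis that is linear below 0.1 and log10 above. Points are libraries numbered by replicate, lines are group means, and Zbtb46 KO stands left of WT. Only for Lgals1 do all 4 KO points, from 549.7 to 1152 CPM, lie above all 4 WT points, from 182 to 282 CPM.

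The call on Lgals1 depended on which genes were tested with it and by which tool. Restricted to the 1828 genes averaging 100 CPM or more, edgeR gave it an adjusted p of 0.0124 with a log2 fold of 1.84 ± 0.29 (standard error). It was the single gene called higher there (0.0547% of that set). DESeq2 gave an adjusted p of 0.000349 with a log2 fold of 1.78 ± 0.38 (standard error). In the other 18 of 20 alternative settings it did not pass in edgeR or limma-voom. The fitted direction was higher in KO in all 20, with log2 folds from 1.34 to 1.91 and adjusted p from 0.000349 to 0.975.

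**Figure D2:**
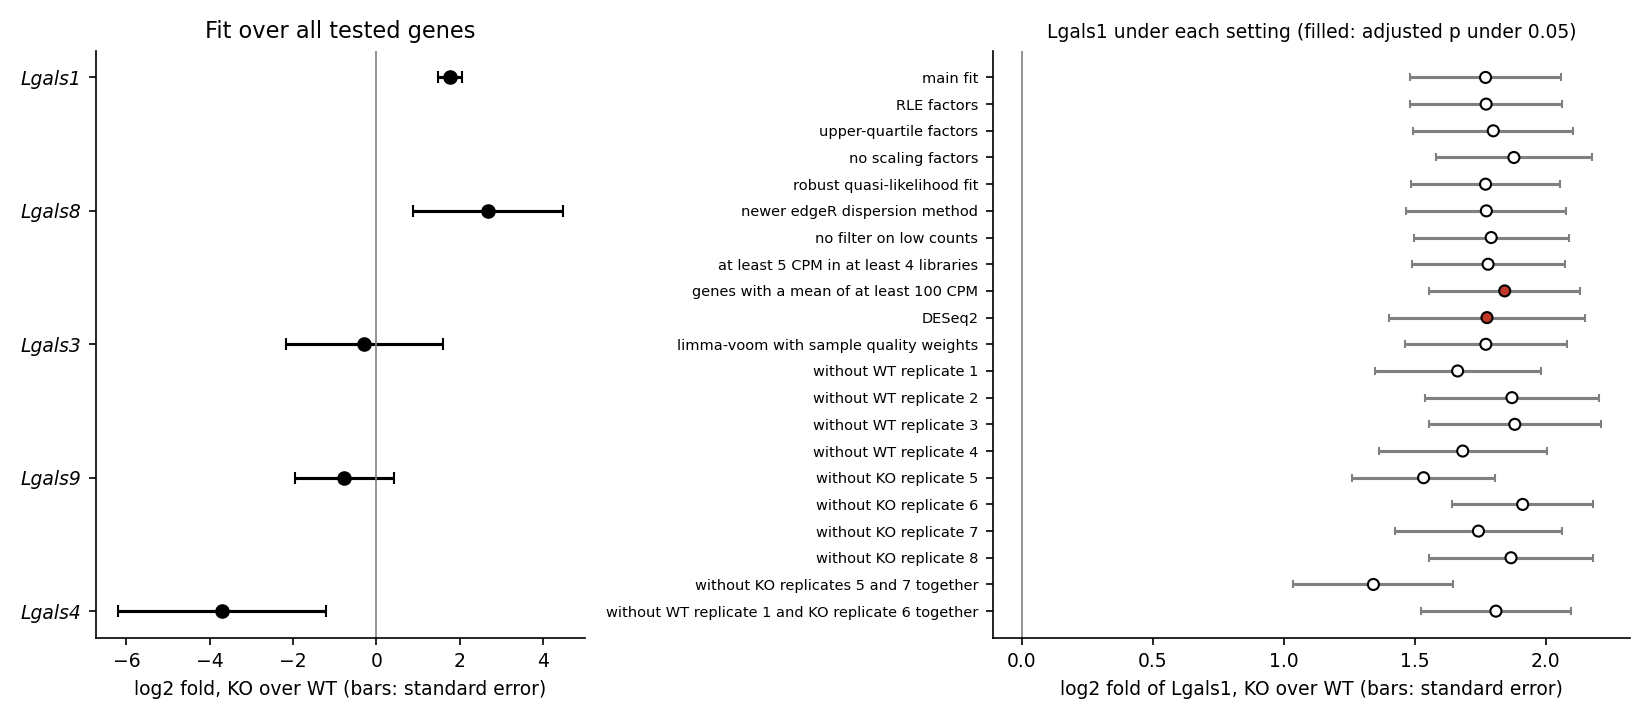
Log2 folds of KO over WT with standard errors: on the left the 5 tested members in the fit over all 8878 tested genes, on the right Lgals1 in that fit and under each alternative. Filled points have an adjusted p under 0.05. Lgals1 stays between 1.34 and 1.91, while the bars of the other members are several times wider.

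Lgals1 was also set against other genes of the same library, a ratio that does not depend on the scaling. The ratio of Lgals1 to Il7r, the interleukin 7 receptor chain on which ILCs depend, averaged 0.45 ± 0.181 in KO and 0.134 ± 0.0434 in WT (SD, n = 4 each). Its KO values, 0.264 to 0.634, lay above its WT values, 0.0896 to 0.174. The ratio to Kit, the stem cell factor receptor, was 0.396 to 1.01 in KO and 0.155 to 0.376 in WT. The groups did not overlap in the ratio to 5 of the 7 ILC3 marker genes (Il23r, Il22, Il7r, Kit and Ltb), beside 44.6% of the 5375 other tested genes with more than 3 counts in every library. Some of these genes had lower means in KO. Ltb, which encodes lymphotoxin beta, was at 38.7 to 61.8 CPM in KO and 63.7 to 199 CPM in WT libraries, without overlap (adjusted p 0.772 in edgeR and 0.0621 in DESeq2). Il23r averaged 1530 ± 616 CPM in KO and 2378 ± 689 CPM in WT, and Il22 15419 ± 2502 CPM in KO and 21238 ± 4647 CPM in WT (SD, n = 4 each), both with overlap. The ratios to these genes therefore separate the groups partly through the denominator. The groups overlapped in the ratio to Ccr6 and Thy1, where the KO mean was also the higher one (7.49 against 2.11 and 2.56 against 1.18 for KO against WT).

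The Lgals1 gene lies on chromosome 15 from 78926725 to 78930465 (RefSeq, GRCm38.p6, the assembly behind mm10). Its RefSeq span overlaps that of the gene model Gm30368, which was not analysed here. None of the 903 distinct 50-base stretches of its GENCODE M21 transcripts occurs in a transcript of another gene on either strand. Of the 10 genes of the table within 100 kb, 5 had at most 3 counts in every library, and these include Lgals2. The 4 tested neighbours were Sh3bp1, Nol12, Triobp and H1f0. EdgeR, DESeq2 and limma-voom called 0 of them, 0 had an unadjusted edgeR p under 0.05, and the smallest was 0.427. The linker histone gene H1f0, the most abundant of the 4, had 231, 54.9, 123 and 201 CPM in KO replicates 5 to 8, against 101, 240.4, 96.4 and 72.4 CPM in WT replicates 1 to 4. Its groups overlapped, with a log2 fold of 0.26 ± 0.51 (standard error).

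Lgals3 encodes galectin-3, also known as the macrophage surface antigen Mac-2 (chromosome 14, 47373860 to 47386167). It had 60.8, 4.97, 33.6 and 22.6 CPM in KO replicates 5 to 8, against 0.0391, 132, 17.2 and 0 CPM in WT replicates 1 to 4. The groups overlapped, because the 2 lowest libraries and the highest one were all WT. All 4 KO libraries had more than 3 counts, against 2 of 4 WT libraries. The means were 30.5 ± 23.4 CPM in KO and 37.2 ± 63.4 CPM in WT (SD, n = 4 each), and the log2 fold was -0.29 ± 1.89 (standard error), with an adjusted p of 1.00 in edgeR. The highest value, 132 CPM, came from WT replicate 2, where epithelial markers summed to 1025 CPM. Without that library the log2 fold turned to 2.40 ± 2.19 (standard error, edgeR adjusted p 1.00). The 2 highest KO values were those of replicates 5 and 7, the libraries with the most macrophage and neutrophil markers. The part of those cells in the Lgals3 signal was not tested.

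Lgals8 encodes galectin-8, a tandem-repeat galectin that also binds the glycans exposed on damaged endosomes (chromosome 13, 12439402 to 12464977). It had 50.5, 54.7, 13.8 and 70.8 CPM in KO replicates 5 to 8, against 0.0391, 0.745, 28.8 and 0.0393 CPM in WT replicates 1 to 4. KO libraries were above 10 CPM throughout, while WT replicates 1 and 4 had 1 count each. WT replicate 3, at 28.8 CPM, lay above KO replicate 7, so the groups overlapped. The means were 47.4 ± 24.1 CPM in KO and 7.41 ± 14.3 CPM in WT (SD, n = 4 each). The log2 fold was 2.68 ± 1.81 (standard error) with an adjusted p of 1.00 in edgeR, and DESeq2 gave an adjusted p of 0.699. The gene passed the filter on low counts through the KO libraries, so its direction is no sign of stability. Its log2 fold was 7.44 without WT replicate 3 (edgeR adjusted p 0.688), 6.05 in limma-voom and 2.17 to 3.08 in the other alternatives. Of its 50-base stretches, 3.87% also occur in transcripts of the neighbouring gene Heatr1 or the model AC107765.2, so a small share of its reads may not be its own.

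Lgals9 encodes galectin-9, a ligand of the checkpoint receptor Tim-3 (chromosome 11, 78962979 to 78984924). It had 42.7, 0.342, 74.2 and 8.04 CPM in KO replicates 5 to 8, against 46.3, 108, 19.4 and 39.8 CPM in WT replicates 1 to 4. All 8 libraries had more than 3 counts. KO replicates 6 and 8 lay below every WT library and KO replicate 7 above all but WT replicate 2. The means were 31.3 ± 34.0 CPM in KO and 53.4 ± 38.3 CPM in WT (SD, n = 4 each). The log2 fold was -0.77 ± 1.19 (standard error) with an adjusted p of 1.00 in edgeR. No alternative called it, and the log2 fold depended on single libraries: it was -0.17 without WT replicate 2 and -1.64 without KO replicate 7. With KO replicates 5 and 7 left out together it was -3.65.

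Lgals4, the galectin gene of intestinal epithelium (chromosome 7, 28833122 to 28841710), was included as a check on other cells. It had 9.76, 20.1, 0.0939 and 0.72 CPM in KO replicates 5 to 8, against 12.1, 388, 0 and 0 CPM in WT replicates 1 to 4. The groups overlapped, and WT replicate 2 stood far above the other 7 libraries. That library also had 724 CPM of the mucin gene Muc2 and 137 CPM of the adhesion molecule gene Epcam. With it, the log2 fold was -3.70 ± 2.50 (standard error, edgeR adjusted p 1.00). Without it, it was 0.93 ± 2.67 (standard error, edgeR adjusted p 1.00). Lgals4 did not follow the epithelial markers in the remaining libraries. KO replicate 5 with 342 counts, KO replicate 6 with 529 and WT replicate 1 with 310 counts of Lgals4 had 0 counts of Epcam. Their 12 epithelial markers summed to 0.171, 8.58 and 2.86 CPM. In the last 2 of these sums, 8.39 and 2.82 CPM were the carbonic anhydrase gene Car1. Of the 12 markers, Cdh1, Vil1 and Fcgbp had at most 3 counts in every library, and the part of epithelial cells in the Lgals4 signal was not tested.

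The other 4 members did not pass the filter on low counts and were not tested. Lgals2 and Lgals12, which encode galectin-2 and the adipocyte-associated galectin-12, had 0 counts in all 8 libraries, which allows at most 0.124 CPM in any of them. Lgals7, which encodes the galectin-7 of stratified epithelia, had 1 count over the KO and 2 counts over the WT libraries. Lgals3bp, which encodes a secreted glycoprotein that binds galectin-3, had 1 count over the KO and 3 over the WT libraries. At this depth these transcripts were not distinguishable from 0 in either group. Of the galectin-related genes outside the family, Grifin had 0 counts, and Lgalsl had 10.4 CPM in KO replicate 7, 30.1 CPM in WT replicate 1 and at most 0.0827 CPM elsewhere.

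Set against the length of their annotated exons, the members separated into Lgals1 and a group of much lower genes. In KO libraries, Lgals1 had 881 ± 299 CPM per kb, followed by Lgals3 with 16.4 ± 12.6, Lgals9 with 14.6 ± 15.9, Lgals8 with 12.9 ± 6.52 and Lgals4 with 3.31 ± 4.05 CPM per kb (SD, n = 4). In WT libraries, Lgals1 had 258 ± 59.7 CPM per kb, followed by Lgals4 with 43.2 ± 82.9, Lgals9 with 25.0 ± 17.9, Lgals3 with 20.0 ± 34.1 and Lgals8 with 2.01 ± 3.87 CPM per kb (SD, n = 4). The gap between Lgals1 and the next member exceeded the spread in both groups, whereas neighbours below it in either order differed by less than the larger of their SDs, except Lgals8 and Lgals4 in KO libraries. On this scale Lgals1 stood above 99.1% to 99.6% of tested genes in KO libraries and 96.5% to 97.6% in WT libraries. It made up 94.3% to 95.9% of the family's CPM per kb in KO libraries. In WT libraries it made up 88.2%, 92.2% and 91.9% in replicates 1, 3 and 4, and 51.9% in replicate 2, where Lgals4 made up 27.8% and Lgals3 11.8%. The 8 members other than Lgals1 summed to 80.1 to 164 CPM in KO libraries, against 39.9 to 65.4 CPM in WT replicates 1, 3 and 4 and 628 CPM in WT replicate 2.

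The members also differed in how evenly they were measured. The coefficient of variation of Lgals1 was 33.9% in KO and 23.1% in WT, beside medians of 33.0% in KO and 29.6% in WT over 1823 other genes of that abundance (averaging 100 CPM or more). For Lgals3, Lgals4, Lgals8 and Lgals9 it was 50.7% to 122% in KO and 71.7% to 193% in WT. These members averaged 27.4 to 53.8 CPM over all libraries, below the level of the reference genes. Whether other genes at their level vary as much was not tested. Lgals8 and Lgals3 were below 1 CPM in some WT libraries and above 15 CPM in others.

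Lgals1 was read beside the markers of other cell types in the same libraries. The 2 KO libraries with the most Lgals1, replicates 5 and 7, had 238 and 316 CPM of the neutrophil alarmin gene S100a8. The monocyte and macrophage receptor gene Cd14 had 39.1 and 49.7 CPM there, against 0.0759 and 0 CPM in KO replicates 6 and 8 and 45.8 CPM in WT replicate 4. In KO replicate 7, Lyz2 was at 35.4, Mpeg1 at 19.9, C1qc at 9.60 and Cd68 at 8.17 CPM. In KO replicate 5, these genes were at or below 0.656 CPM. Elsewhere, Mpeg1 reached 49.2 CPM in KO replicate 6, C1qc 33.6 CPM in WT replicate 1 and Lyz2 21.4 CPM in WT replicate 3. Csf1r, Adgre1 and Itgam were at or below 6.26 CPM in both KO replicates 5 and 7. All 12 macrophage and neutrophil markers had more than 3 counts in at least 1 library. In KO replicates 6 and 8 the 12 summed to 62.0 and 26.1 CPM, within the 21.2 to 90.0 CPM of the WT libraries, and Lgals1 was at 549.7 and 629 CPM there, above every WT library. Without KO replicates 5 and 7 the fold was 2.53, with an edgeR adjusted p of 0.975. WT replicate 1, with 1174 CPM of stromal and endothelial markers, had the lowest Lgals1 value of all, 182 CPM. Of the 9 stromal and endothelial markers, Cdh5 had at most 3 counts in every library.

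The summed markers of lymphoid and dendritic cells overlapped between the groups. NK cell and ILC1 markers summed to 189 to 634 CPM in KO and 49.8 to 248 CPM in WT libraries, highest in KO replicate 5. In KO libraries the sum was mostly Ncr1, at 148 to 447 CPM, against 0.0391 to 198 CPM in WT. The KO sums therefore largely followed that gene and are no level of NK cells or ILC1s. Klrb1c had 13.7 to 46.2 CPM in KO and 24.4 to 48.2 CPM in WT libraries. Gzmb had 0.0626 to 34.0 CPM in KO and 0.548 to 39.1 CPM in WT libraries. Ccl5 reached 105 CPM in KO and 12.3 CPM in WT libraries, and Tbx21 11.3 CPM in KO and 3.64 CPM in WT. Gzma had 59.4 CPM in KO replicate 5 and at most 0.228 CPM elsewhere. Of the 8 listed, Eomes and Prf1 had at most 3 counts in every library. T cell markers summed to 116 to 257 CPM in KO and 118 to 309 CPM in WT, mostly Trbc1, Trbc2 and Cd4. Cd8a and Cd8b1 were at or under 3 counts, and Cd3e had at most 4 counts in any library. Dendritic cell markers summed to 561 to 1216 CPM in KO and 530.1 to 851 CPM in WT, mostly Ccr7, with Cd209a at or under 3 counts. Flt3, Clec9a and Itgax had at most 10 counts in any library and, like Cd209a, were not tested. The log2 folds of the 5 that were tested ran from 0.21 to 3.16, each with KO higher, beside 4516 of all 8878 tested genes. Among them, Irf8, a transcription factor gene of dendritic cells, had 13.6, 16.6, 7.63 and 25.7 CPM in KO replicates 5 to 8, against 5.75, 0.331, 0.937 and 0.0786 CPM in WT replicates 1 to 4. Its groups did not overlap, and its adjusted p was 1.00 in edgeR and 0.149 in DESeq2. Irf8 passed the filter on low counts largely through the KO libraries. B and plasma cell markers summed to 21.3 to 90.0 CPM in KO and 8.80 to 136 CPM in WT, with Ms4a1 at or under 3 counts. Mast cell markers summed to 66.2 CPM in KO replicate 6, all of it Cpa3, and to at most 3.23 CPM elsewhere. The part of these cells in the Lgals1 difference was not tested.

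**Figure D3:**
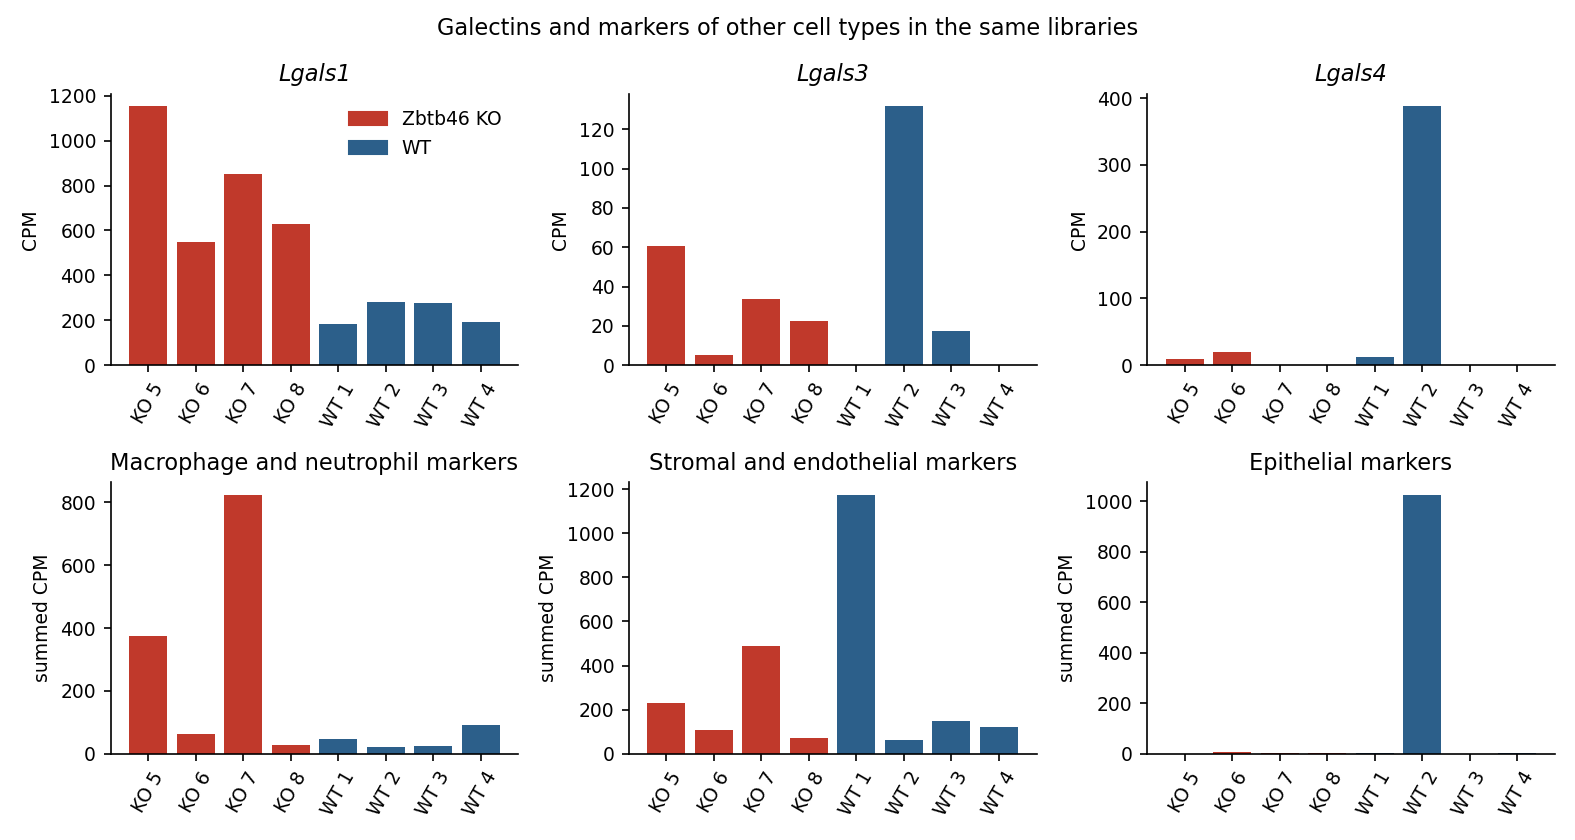
Upper row: CPM of Lgals1, Lgals3 and Lgals4 in each library. Lower row: summed CPM of the marker lists of macrophages and neutrophils, of stroma and endothelium, and of epithelium in the same libraries, with KO on the left in red and WT on the right in blue. Lgals4 and the epithelial sum share their peak in WT replicate 2, at 388 and 1025 CPM, and Lgals1 is above every WT bar in KO replicates 6 and 8, where the macrophage and neutrophil sum is 62.0 and 26.1 CPM.

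Among 1823 abundant genes outside the family, the 4 whose profile over the 8 libraries lay nearest to that of Lgals1 were Anxa2, S100a6, Cct7 and Fdx1. Nearness was the mean absolute difference between log2(CPM + 1) values, each centred on the gene's own mean. It was 0.30 for Anxa2, 0.35 for S100a6, 0.37 for Cct7 and 0.41 for Fdx1, against a median of 0.96 over all 1823. Anxa2, which encodes the membrane-binding annexin A2, had 456, 214, 142 and 246 CPM in KO replicates 5 to 8, against 68.2, 133, 89.6 and 78.2 CPM in WT replicates 1 to 4. S100a6, a calcium-binding protein gene, had 916, 508, 778 and 772 CPM in KO replicates 5 to 8, against 488, 341, 355 and 255 CPM in WT replicates 1 to 4. The KO libraries of both genes lay above the WT libraries, by a narrow margin in each.

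Cct7, a chaperonin subunit gene, averaged 182 ± 32.6 CPM in KO and 84.7 ± 8.86 CPM in WT (SD, n = 4 each). Fdx1, a mitochondrial ferredoxin gene, averaged 218 ± 61.3 CPM in KO and 114 ± 32.1 CPM in WT (SD, n = 4 each). Since Lgals1 itself separates the groups, genes near it in profile separate them too, and none of the 4 passed in edgeR (adjusted p 0.515 to 0.956). DESeq2 called Cct7 (log2 fold 1.10, adjusted p 0.00034) and not the other 3 (adjusted p 0.062 to 0.171).

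**Figure D4:**
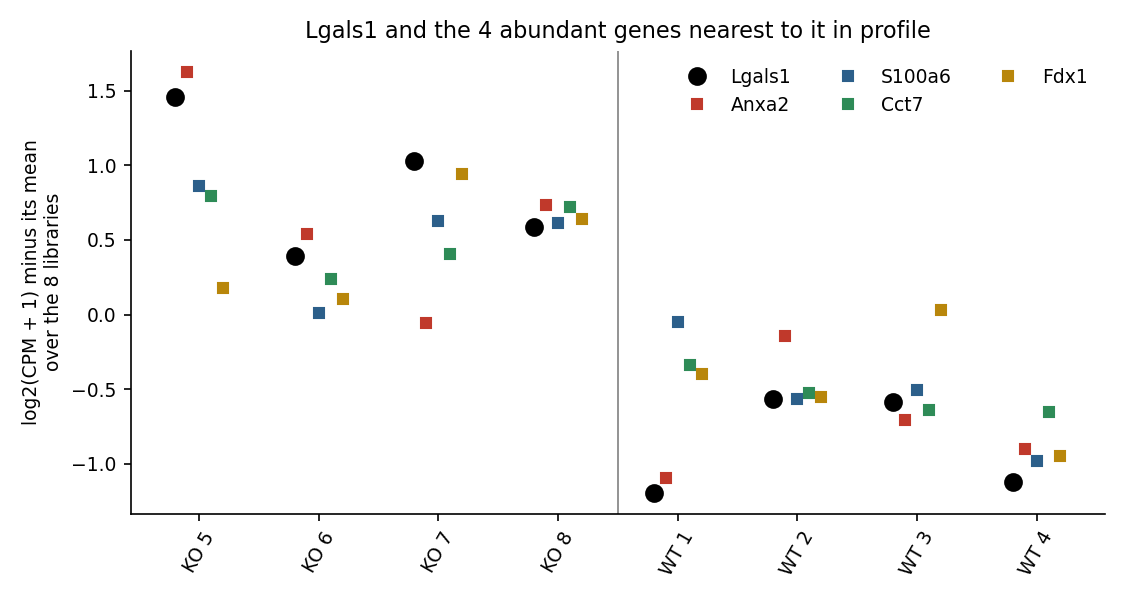
Log2(CPM + 1) of Lgals1 and of its 4 nearest abundant genes in each library, centred on each gene's mean, with the 4 KO libraries left of the 4 WT libraries. Each of the 5 genes has all of its KO points above all of its WT points, and Lgals1 is highest in KO replicate 5.

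Galectins act through glycoproteins and the glycans on them, which were followed as 4 lists of 43 genes, 33 of them tested. EdgeR, DESeq2 and limma-voom called 0 of these genes, and edgeR gave 4 of the 33 an unadjusted p under 0.05, beside 4.1% of all tested genes. Of 15 glycoprotein genes known as galectin counter-receptors, 12 were tested, and 8 had higher and 4 lower fitted values in KO. Their median log2 fold was 0.29, beside 0.02 over all tested genes. Ptprc, which encodes the phosphatase CD45 and is a main galectin-1 receptor of lymphocytes, had 951, 926, 816 and 769 CPM in KO replicates 5 to 8, against 319, 510.3, 514 and 752 CPM in WT replicates 1 to 4. Its groups did not overlap, by 769 CPM in the lowest KO against 752 CPM in the highest WT library, with a log2 fold of 0.72 ± 0.26 (standard error) and an adjusted p of 0.983 in edgeR. The sort used CD45 staining, so the surface level of this protein was part of the gate.

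Nrp1, a semaphorin co-receptor that galectin-1 also binds, had 256, 649, 273 and 352 CPM in KO replicates 5 to 8, against 717, 567, 591 and 783 CPM in WT replicates 1 to 4. KO replicate 6 lay within the WT range, and the log2 fold was -0.80 ± 0.31 (standard error, edgeR adjusted p 1.00). Of the other receptors on the list, Cd2, Lag3 and P4hb did not pass the filter on low counts. Cd2 and Lag3 had at most 5 counts in any library. P4hb, which encodes protein disulfide isomerase, had 81.3 CPM in KO replicate 5, 10.9 CPM in KO replicate 8, 5.66 CPM in WT replicate 4 and at most 0.114 CPM elsewhere. Havcr2, which encodes the galectin-9 receptor Tim-3, had 111 CPM in KO replicate 5 and at most 15.6 CPM in the other libraries.

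The enzymes that build the glycans were mostly low and uneven. Of 14 genes of N-glycan branching and N-acetyllactosamine synthesis, 11 were tested, with 5 higher and 6 lower fitted values in KO and a median log2 fold of -0.27. Mgat5, whose enzyme adds the branch that galectin-3 favours, did not pass the filter on low counts, with 57.3 CPM in KO replicate 8, 9.48 CPM in WT replicate 3, 2.04 CPM in WT replicate 1 and at most 0.207 CPM elsewhere. B4galt5, a galactosyltransferase gene, had 34.6, 19.7, 22.2 and 30.0 CPM in KO replicates 5 to 8, against 10.6, 4.92, 2.92 and 0.0786 CPM in WT replicates 1 to 4. Its groups did not overlap, and its log2 fold was 2.52 ± 1.37 (standard error, edgeR adjusted p 1.00). B3gnt5, an N-acetylglucosaminyltransferase of glycolipids, averaged 122 ± 63.3 CPM in KO and 208 ± 93.7 CPM in WT (SD, n = 4 each), with overlap.

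Of 6 genes of O-glycan core synthesis, 4 were tested, 2 of them higher and 2 lower in fitted value, with a median log2 fold of -0.08 that was 0.05 without scaling factors. C1galt1c1, the chaperone of the core galactosyltransferase, averaged 142 ± 81.2 CPM in KO and 204 ± 93.5 CPM in WT, and Galnt1, which starts O-glycans, 141 ± 24.5 CPM in KO and 165 ± 48.1 CPM in WT (SD, n = 4 each), both with overlap. Of 8 genes of sialylation, which caps galactose, 6 were tested, 4 higher and 2 lower in fitted value, with a median log2 fold of 0.69.

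St3gal1, which sialylates O-glycans, had 91.6, 139, 52.1 and 72.2 CPM in KO replicates 5 to 8, against 50.1, 21.5, 31.4 and 14.3 CPM in WT replicates 1 to 4. Its groups did not overlap, by 52.1 CPM in the lowest KO against 50.1 CPM in the highest WT library, and its log2 fold was 1.60 ± 0.58 (standard error, edgeR adjusted p 0.983). St3gal2 had 53.2 CPM in KO replicate 6 and at most 6.82 CPM elsewhere. St6gal1, whose α2,6-linked sialic acid blocks galectin-1 binding, was not tested, with 26.4 CPM in KO replicate 7, 52.2 CPM in WT replicate 1 and at most 0.0414 CPM elsewhere. Of the 33 tested genes of the 4 lists, 3 had non-overlapping groups, Ptprc, B4galt5 and St3gal1, each with KO higher. Among all tested genes, 2.26% had non-overlapping groups with KO higher, and 4.36% in either direction.

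**Figure D5:**
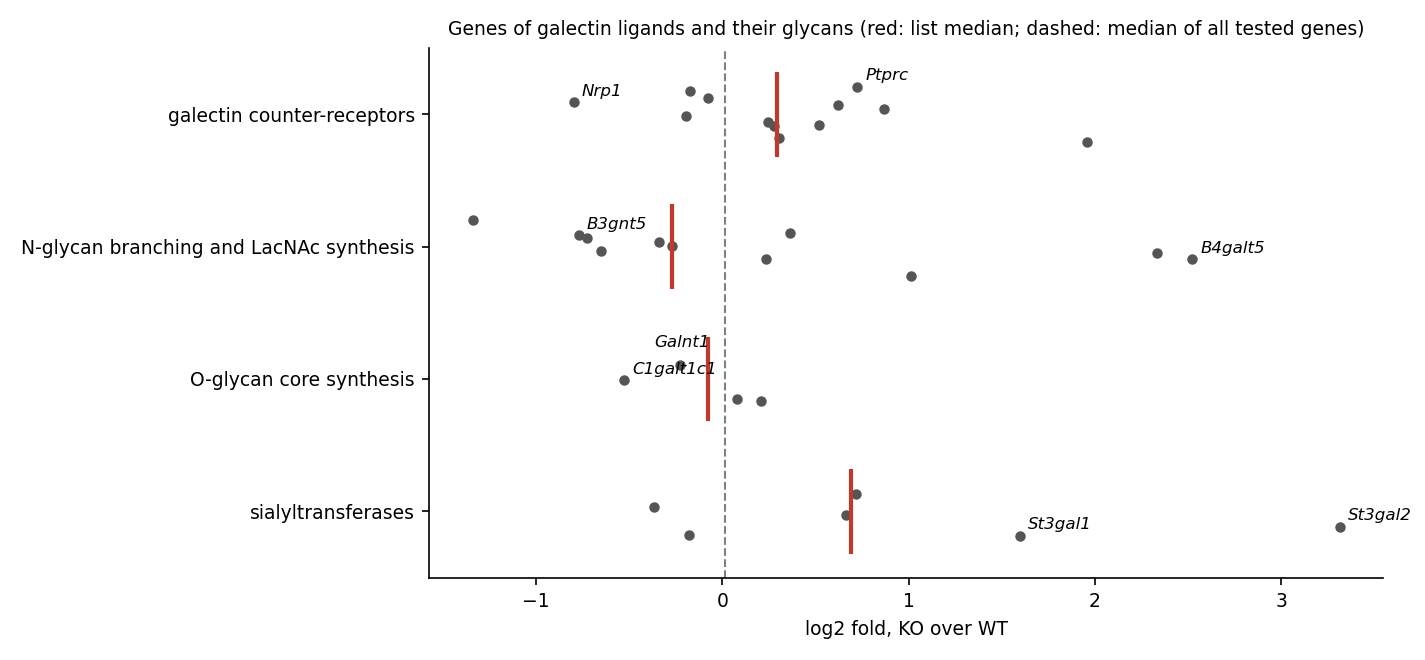
Log2 folds of KO over WT for the tested genes of 4 lists: galectin counter-receptors, N-glycan branching and N-acetyllactosamine synthesis, O-glycan core synthesis and sialyltransferases with related genes. Each point is a gene, the red line is the median of the list and the dashed line the median of all tested genes, 0.02. The list medians run from -0.27 to 0.69 and the points of each list fall on both sides of the dashed line.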

How the data were processed

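Per the labels' protocols, RNA of sorted ILC3s from 8 mice was amplified with a SMARTer ultra low input kit. The submitters' processing notes name CASAVA 1.8.2, STAR 2.3.0 and the build mm10. The sources used here do not say how reads were assigned to genes (tool, annotation, strand, multiply mapped reads). The authors deposited raw read counts per Entrez gene ID, without normalization. Symbols came from the RefSeq table of GRCm38.p6 and matched 25275 of 27179 IDs. Exon lengths came from GENCODE M21 and were found for 8372 of 8878 tested genes.

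Groups were taken from the sample titles. The main test was the quasi-likelihood test of edgeR 4.0.16 under R 4.3.3, with TMM factors, filterByExpr and Benjamini-Hochberg adjustment over all tested genes, with a threshold of 0.05. CPM relate counts to the TMM-scaled library size of the tested genes. A standard error is the log2 fold over the root of its F value. Alternatives used DESeq2 1.42.0, limma 3.58.1, other scaling factors and filters, a robust fit, and libraries left out. A further one, the newer edgeR dispersion method, was added after seeing the data. The edgeR step was also run on simulated counts with known folds, and the share of changes it detected there is not given here. The members, lists, set of abundant genes and left-out libraries were chosen with earlier results of these data known. All 9 members were named, along with the 2 genes of smallest p in each list and the 4 nearest genes averaging 100 CPM or more, leaving out unnamed gene models. Of the marker lists, 2 genes are not reported here. Further genes were named after their values were seen: the neighbours of Lgals1, Havcr2, P4hb, Mgat5, St6gal1, single markers of other cells and the ILC3 genes in ratios. No source says that mice were littermates, and p-values measure the spread between mice and library preparations together.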

Additional observations from a re-analysis of the deposited data

Results flagged for a closer look

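The gap of a library to its nearest neighbour was divided by the whole range of its group. By this measure, a library stood far from the other 3 of its group in 10 of 54 groups of values examined. Chance would give about 2.7 if the values were normally distributed and independent. CPM are skewed and the groups of values share libraries, so no conclusion is drawn from the excess over 2.7. Lgals3 was at 132 CPM in WT replicate 2, against 0 to 17.2 CPM in the other WT libraries. Lgals4 was at 388 CPM in the same library, against 0 to 12.1 CPM in the other WT libraries, and the epithelial markers there summed to 1025 CPM, against 0.432 to 3.66 CPM. Lgals8 was at 28.8 CPM in WT replicate 3, against 0.0391 to 0.745 CPM in the other WT libraries.

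The sialyltransferase gene St3gal2 was at 53.2 CPM in KO replicate 6, against 0 to 6.82 CPM in the other KO libraries, and at 6.18 CPM in WT replicate 1, against 0 to 0.432 CPM in the other WT libraries. KO replicate 6 also stood apart in the epithelial sum, at 8.58 CPM against 0.171 to 1.31 CPM, and in the mast cell sum, at 66.2 CPM against 0 CPM in the other KO libraries. The mast cell sum of WT replicate 2 was 3.23 CPM, against 0 to 0.0721 CPM in its group. The stromal and endothelial sum of WT replicate 1 was 1174 CPM, against 61.7 to 149 CPM in its group. Lgals1 and Lgals9 had no such library in either group.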

How the results depend on the processing

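No paired analysis was possible because the replicate numbers run from 1 to 8 and the groups share none. Of 20 alternatives, the number of members called moved from 0 to 1, in each case Lgals1, with DESeq2 (log2 fold 1.78) and among genes averaging 100 CPM or more (log2 fold 1.84). With 1 library left out its log2 fold was 1.53 to 1.91 (edgeR adjusted p 0.155 to 0.831). Over all genes, DESeq2 called 240 higher and 134 lower in KO, the fit without a filter 1 and 1, and the set averaging 100 CPM or more 1 and 3. With 1 library left out 0 were higher, and 0 to 2 lower, the 2 without KO replicate 6. No alternative called a gene of the 4 lists. With 1 library left out, the log2 fold of Lgals3 was -0.86 to 2.40, that of Lgals4 -4.80 to 0.93, that of Lgals8 2.26 to 7.44 (7.44 without WT replicate 3) and that of Lgals9 -1.64 to -0.17 (-0.17 without WT replicate 2, -1.64 without KO replicate 7). The log2 fold of Lgals3 changed sign to 4.07 in limma-voom, 2.40 without WT replicate 2 and 0.08 without KO replicate 6. That of Lgals4 changed sign to 0.23 in limma-voom and 0.93 without WT replicate 2, and that of Galnt1 to 0.013 without WT replicate 1 and KO replicate 6. The alternatives that leave out a library show only that a fold depends on that library, and the cause of these changes was not tested. DESeq2 gave Lgals4 no p. The median log2 fold of all genes was 0.11 without scaling factors, against 0.02, and the counter-receptors then had 9 higher and 3 lower.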
